A study of Mus musculus with 139 samples.

Results

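Calcium enters cochlear hair cells through transduction channels and voltage-gated channels, and 8 genes that encode proteins clearing it from the cytosol are described here across hair cell types and cochlear regions. They are Atp2b1, Atp2b2 and Atp2b4 (plasma membrane calcium pumps), Atp2a2 and Atp2a3 (the SERCA pumps of the endoplasmic reticulum), Slc8a1 and Slc8a2 (sodium-calcium exchangers of the plasma membrane) and Mcu (the pore of the mitochondrial calcium uniporter). The members were chosen by name, by mapping the Ensembl identifiers of the count table to these symbols, and all 8 of the 8 symbols were found among 55335 genes.

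Plasma membrane pumps and SERCA pumps move calcium against its gradient at the cost of ATP, whereas exchangers use the sodium gradient and the uniporter lets calcium follow the voltage across the inner mitochondrial membrane. In hair cells, Atp2b2 encodes the pump of the stereocilia, the sensory bundle that carries the transduction channels, and mice with a defective Atp2b2 are deaf. Inner hair cells (IHCs) drive the afferent nerve fibers that carry sound to the brain. Outer hair cells (OHCs) change their length with voltage and so amplify the sound.

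The study compared hair cells from different parts of the mouse cochlea at postnatal days 14 to 16, and each of its samples was 1 cell, with 87 IHCs and 52 OHCs in all. The labels put 34 cells in the IHC apex group, 34 in the IHC middle group and 19 in the IHC base group, and 21, 23 and 8 cells in the OHC apex, middle and base groups. No strain, genotype, sex or treatment is given for any group in the sources used here. No label names an animal, so each group counted as 1 sample, cells were not treated as replicates, and no test between groups was possible.

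Total counts per cell ranged from 71027 to 13576942, with a median of 4804177. The summed markers of the labelled hair cell type lay between 5453 and 8938 CPM (counts scaled to a common total) in every group, and those of the other type were between 121 and 753 CPM. In 8 cells (4 apical and 1 middle IHC, 1 middle and 2 basal OHCs) the markers of the other type summed to more than those of their own. Without these 8 cells, all 35 member differences past 2-fold kept their direction and stayed past 2-fold. The basal OHC group stood apart: 1 of its 8 cells held 30.9% of its counts. Its 7 general hair cell markers summed to 803 CPM, against 1736 to 5079 CPM in the other groups. The 8 blood and immune markers reached 19529 CPM there against 405 to 3421 CPM elsewhere, nearly all from the hemoglobin genes Hbb-bs (13777 CPM), Hba-a1 (4681 CPM) and Hbb-bt (1046 CPM). The immune genes of that list were near 0, with Ptprc at 0.448, Cd74 at 0.0996, Lyz2 at 0.149 and C1qa at 9.76 CPM. The 6 connective tissue markers reached 20290 CPM there, mostly from Col1a1 and Col1a2, against 453 to 4680 CPM elsewhere. Neuron and glia markers reached 13401 CPM there (10 of 10 detected, 2039 to 4505 CPM elsewhere), and supporting cell markers 2863 CPM (9 of 10, with Jag1 at 0, and 1102 to 3188 CPM elsewhere). The part of these transcripts in the low member values of basal OHCs was not tested. The titles of 81 cells carry numbers of 100 or less, and those of 58 cells carry higher numbers. What the numbers stand for is not given, and both ranges occur in all 6 groups, in differing proportions. Numbers of 100 or less belong to 17, 21 and 12 apical, middle and basal IHCs and to 9, 16 and 6 OHCs. Higher numbers belong to 17, 13 and 7 IHCs and to 12, 7 and 2 OHCs of the same regions. Cells with higher numbers held 84425537 of 102704914 counts in apical and 70035535 of 94869815 in middle OHCs, but 2615863 of 28574809 in basal OHCs. These ranges are called the lower and the higher series below, because several members differed between them. The lower series was also shallower in every group except basal OHCs. Its median total per cell was 762541 counts in middle OHCs, against 10532500 in the higher series. In apical OHCs the medians were 1655580 and 6352190, and in basal OHCs 4120300 and 1307930. The part of depth in the differences between the series was not tested.

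Levels below are CPM of the counts summed over a group, scaled by TMM factors. Levels of a series are scaled likewise, with TMM factors from that series' own sums, and values of single cells are CPM on the cell's own total. Intervals are exact 95% Poisson intervals and cover counting error only. A difference is the log2 ratio of 2 groups' CPM, each with 1 CPM added. A gene was called where the difference was at least 2-fold, that is 1 on the log2 scale.

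Atp2b1, which encodes the broadly expressed pump PMCA1, was the leading plasma membrane pump of IHCs. Its gene lies on chromosome 10 from 98914406 to 99026143 on the plus strand of GRCm38. Atp2b1, Atp2a3 and Mcu were the 3 members at least 2-fold lower in OHCs than in IHCs in each of the 3 regions, and 1 upstream sequence of each is printed for that reason. Each is the 250 bases before a RefSeq transcription start (GRCm38.p6), with no base in an annotated exon. Capitals mark matches to GGGCGG (the GC box) or CCAAT, on either strand. For Atp2b1 the window before the downstream one of its listed starts, chr10:98914902-98915151 on the plus strand, lies in an intron and holds 3 GC boxes.
Atp2b1: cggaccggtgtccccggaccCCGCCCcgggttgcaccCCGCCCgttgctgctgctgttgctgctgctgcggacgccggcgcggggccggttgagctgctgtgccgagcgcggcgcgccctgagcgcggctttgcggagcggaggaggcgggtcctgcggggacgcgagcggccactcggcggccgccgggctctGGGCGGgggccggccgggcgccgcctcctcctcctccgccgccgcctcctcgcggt

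Summed Atp2b1 counts came to 1460.3 CPM in apical, 2544 CPM in middle and 4744 CPM in basal IHCs (interval 4732 to 4756 in the base). OHCs held 580.2 CPM in the apex, 617 CPM in the middle and 135 CPM in the base (interval 130 to 140.3). All 3 IHC groups were thus above all 3 OHC groups, and the IHC level over all cells was higher toward the base. In the higher series it was highest in the middle, with 1122, 2578 and 2043 CPM in apical, middle and basal IHCs. In single IHCs, Atp2b1 ran from 0 through a median of 1231 to 4244 CPM in the apex. It ran from 2.43 through 2084 to 10895 CPM in the middle, and from 1.68 through 3349 to 21273 CPM in the base. Basal IHCs of the lower series at 20491 and 21273 CPM held 134309 and 127106 of the 624672 Atp2b1 counts of their group. Their summed IHC markers were 714 and 216 CPM, against a median cell of 7439 CPM in basal IHCs. OHCs ran from 1.01 through 375 to 2675 CPM in the apex, from 0 through 201 to 3560 CPM in the middle and from 0 through 5.15 to 827 CPM in the base. Cells of every group therefore overlapped, although 79 of 87 IHCs and 29 of 52 OHCs exceeded 100 CPM. The log2 difference between OHCs and IHCs was -1.33 for apical, -2.04 for middle and -5.12 for basal cells. Between base and apex it was 1.70 in IHCs, or 0.86 and under 2-fold in the higher series, and -2.09 in OHCs. A single basal OHC held 78.1% of that group's Atp2b1 counts, and without the top cell of each group the basal difference was -6.87 and the OHC base-to-apex difference -3.94. The higher level in IHCs was seen in both series, with apical differences of -2.64 in the lower and -0.74 in the higher one.

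**Figure D1:**
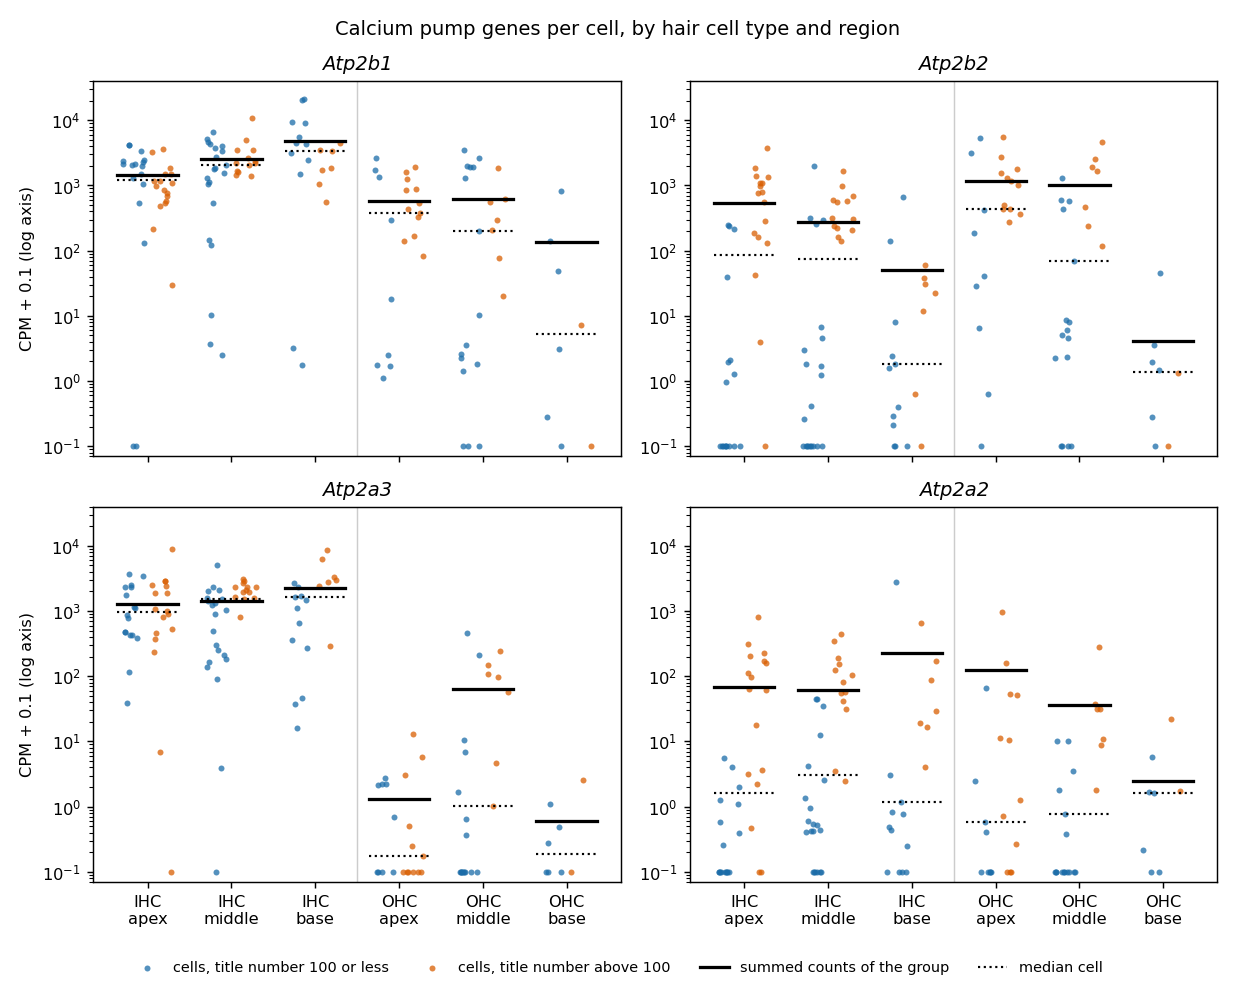
CPM of Atp2b1, Atp2b2, Atp2a3 and Atp2a2 in each cell on a log axis (0.1 CPM added), by cell type and region, with color giving the title-number series. Solid bars are the summed level of a group and dotted lines its median cell; Atp2a3 had a median cell of 953 to 1646 CPM in the IHC groups and under 1 CPM in the OHC groups.

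Atp2b2, the stereociliary pump PMCA2 (chromosome 6, 113743831 to 114042613, minus strand), had the opposite order in 2 of the 3 regions. It stood at 542 CPM in apical, 277 CPM in middle and 50.2 CPM in basal IHCs. OHCs held 1152 CPM in the apex (interval 1146 to 1159), 1030.5 CPM in the middle and 4.03 CPM in the base (interval 3.20 to 5.01, from 81 counts). The level was thus higher in OHCs than in IHCs in the apex and middle, by 1.09 and 1.89 on the log2 scale, and lower in the base, by -3.35. The apical difference was 3.59 in the lower series (683 against 55.8 CPM) and 0.63, under 2-fold, in the higher series (1439.8 against 931 CPM). Both types had less Atp2b2 in the base than in the apex, with differences of -3.41 in IHCs and -7.84 in OHCs.

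Single cells spread widely around these levels. Atp2b2 ran from 0 through a median of 85.9 to 3811 CPM in apical, through 74.2 to 2009 CPM in middle and through 1.74 to 658 CPM in basal IHCs. It ran from 0 through 441 to 5488 CPM in apical, through 70.3 to 4590 CPM in middle and through 1.28 to 45.6 CPM in basal OHCs. All 6 groups overlapped, and the medians of middle IHCs and middle OHCs nearly coincided, with a difference of -0.08. One basal IHC held 65.3% of its group's counts, and without the top cell of each group the IHC base-to-apex difference was -4.57, the basal OHC difference -2.76 and the apical OHC difference 0.92. The gene also differed between the series. In apical IHCs it stood at 55.8 CPM in the lower and 931 CPM in the higher series, and in middle OHCs at 174 and 1545 CPM. The IHC base-to-apex difference was 0.47 in the lower and -5.27 in the higher series.

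The balance between the plasma membrane pumps was read within each cell type from counts per kilobase of exon, since genes of different length cannot be compared otherwise. How evenly reads covered the transcripts is not given. Atp2b2 made up 30.6% of the summed pump counts per kilobase in apical, 11.5% in middle and 1.25% in basal IHCs. It made up 67.9% in apical, 66.4% in middle and 3.20% in basal OHCs, the last from 2986 pump counts. Over all cells, OHCs of the apex and middle thus had more Atp2b2 than Atp2b1 per kilobase, and every IHC group had less. In the lower series, middle OHCs had the reverse order, with 13.8 CPM per kilobase of Atp2b2 and 68.5 of Atp2b1. In the higher series, apical IHCs had nearly equal levels, with 73.8 and 73.7 CPM per kilobase. Among cells with at least 100 pump counts, the median share was 8.23%, 6.58% and 0.14% in apical, middle and basal IHCs and 63.9%, 48.5% and 2.35% in OHCs of the same regions. The last value came from only 3 such cells, all of the lower series. Atp2b2 exceeded 50% in 9 of 81 such IHCs and in 19 of 37 such OHCs. Apical IHCs of the higher series had a median share of 46.8% against 0.06% in the lower series, apical OHCs 64.4% against 14.4% and middle OHCs 54.9% against 10.8%. Atp2b1 and Atp2b2 passed 100 CPM together in 16 of 34 apical, 16 of 34 middle and 2 of 19 basal IHCs. They did so in 12 of 21 apical, 8 of 23 middle and 0 of 8 basal OHCs.

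**Figure D2:**
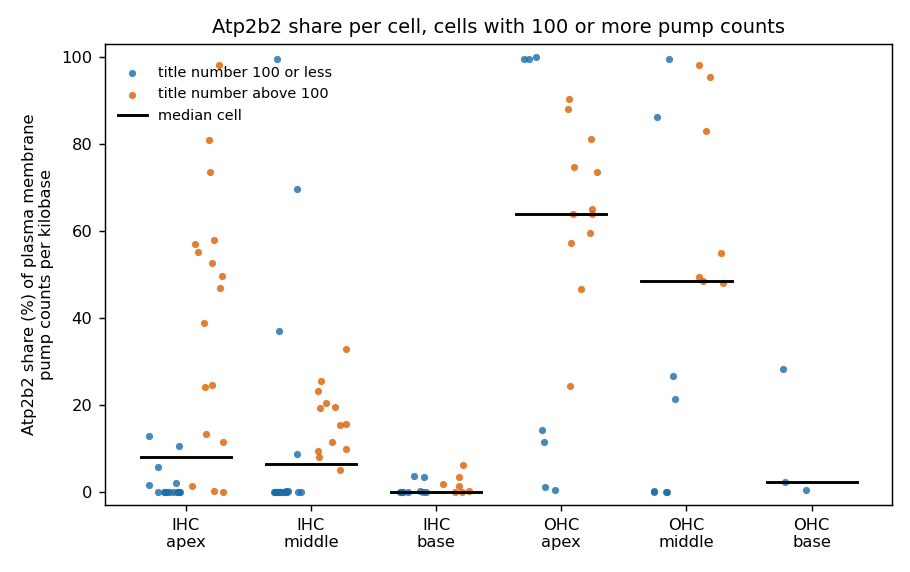
Share (%) of Atp2b2 in the plasma membrane pump counts per kilobase of each cell with at least 100 such counts, by cell type and region, with color giving the title-number series and bars the median cell. The bars stand at 63.9% in apical and 48.5% in middle OHCs and below 10% in all 3 IHC groups, and single cells span nearly the whole range in both types.

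Atp2b4, the pump PMCA4 (chromosome 1, 133699457 to 133801041, minus strand), was low in every group. Its levels were 16.0, 21.3 and 16.9 CPM in apical, middle and basal IHCs and 61.2, 10.7 and 9.31 CPM in the OHC groups. The median cell was at 2.18 CPM or below in all 6 groups, and the highest cell was an apical OHC at 797 CPM. One cell held 92% of the Atp2b4 counts of apical IHCs and 1 cell held 80.3% of those of apical OHCs. The apical difference between OHCs and IHCs of 1.87 rested on the higher series, since it was -0.67 in the lower one, and without the top cells it was 2.54. The OHC base-to-apex difference was -2.59 over all cells, -1.58 without the top cells and 2.43 in the lower series. The IHC base-to-apex difference of 0.07 became 2.30 without the top cells. An annotated microRNA gene, Mir6903, overlaps 6 bases of its exons on the same strand.

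Atp2a3, which encodes SERCA3, separated the hair cell types most widely among the members. It lies on chromosome 11 from 72961169 to 72993044 on the plus strand. The window before its start, chr11:72960919-72961168, ends 1 base before the gene and holds 5 GC boxes, overlapping matches counted singly.
Atp2a3: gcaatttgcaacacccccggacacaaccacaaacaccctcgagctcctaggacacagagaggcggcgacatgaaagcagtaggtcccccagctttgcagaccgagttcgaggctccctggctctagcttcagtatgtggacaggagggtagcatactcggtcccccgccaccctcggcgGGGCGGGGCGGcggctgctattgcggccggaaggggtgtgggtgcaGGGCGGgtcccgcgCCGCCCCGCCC

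IHCs held 1275 CPM of Atp2a3 in the apex, 1416 CPM in the middle and 2218 CPM in the base (interval 2210 to 2226). OHCs held 1.21 CPM in the apex (interval 1.01 to 1.45), 63 CPM in the middle (interval 61.6 to 64.4) and 0.498 CPM in the base (interval 0.239 to 0.916, from 10 counts). The gene was therefore high in all 3 IHC groups and at or below 1.21 CPM in apical and basal OHCs. In single IHCs it ran from 0 through a median of 953 to 8945 CPM in the apex, from 0 through 1522 to 5164 CPM in the middle and from 16.0 through 1646 to 8642 CPM in the base. In single OHCs it ran from 0 through 0.07 to 12.8 CPM in the apex, from 0 through 0.94 to 457 CPM in the middle and from 0 through 0.09 to 2.42 CPM in the base. Every basal IHC was above every apical and every basal OHC, whereas the other pairs of IHC and OHC groups overlapped.

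The log2 difference in Atp2a3 between OHCs and IHCs was -9.17 for apical, -4.47 for middle and -10.53 for basal cells. These differences kept their direction and stayed past 2-fold under all 14 alternatives, between -11.86 and -4.16, and stood at -9.71, -5.87 and -10.19 in the lower series. Along the cochlea the differences were smaller, with 0.80 between base and apex in IHCs and -0.56 in OHCs. Of the 52 OHCs, 5 exceeded 100 CPM and all 5 were middle cells, 2 of the lower and 3 of the higher series. After thinning each cell to 582635 counts, Atp2a3 reads were found in 96.7% of apical, 100% of middle and 100% of basal IHCs. They were found in 26.3% of 19 apical OHCs (exact 95% binomial interval 9.15% to 51.2%), 66.7% of 18 middle OHCs and 42.9% of 7 basal OHCs. Without thinning, 33 of 34, 33 of 34 and 19 of 19 IHCs and 11 of 21, 14 of 23 and 4 of 8 OHCs had reads.

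Atp2a2, which encodes SERCA2, the housekeeping pump of the endoplasmic reticulum (chromosome 5, 122453513 to 122502225, minus strand), was far below Atp2a3 in IHCs. It stood at 69.3, 61.7 and 223 CPM in apical, middle and basal IHCs and at 123, 36.3 and 2.34 CPM in OHCs of the same regions, the last from 47 counts. The median cell was at or below 2.91 CPM in all 6 groups, and the highest cells reached 824, 449 and 2808 CPM in IHCs and 972, 284 and 22.3 CPM in OHCs. All groups overlapped at the low end. Per kilobase, Atp2a3 made up 95.4%, 96.1% and 91.7% of the SERCA counts of IHCs, whereas Atp2a2 made up 90.9% of those of apical OHCs. In middle OHCs Atp2a3 led as in IHCs, with 59.9% against 30% for Atp2a2. One apical OHC held 72.2% and 1 middle OHC 74.1% of their group's Atp2a2 counts. Only 7 of 21 apical and 9 of 23 middle OHCs had at least 100 SERCA counts. Among these, Atp2a2 exceeded 50% per kilobase in 5 apical and 2 middle cells, and Atp2a3 in 0 and 6. The group differences rested on few cells. A single basal IHC held 85.1% of its group's Atp2a2 counts, so the base-to-apex difference in IHCs was 1.67 over all cells, -0.52 without the top cells and -0.71 in the higher series. The differences between OHCs and IHCs were 0.82, -0.75 and -6.07 in apex, middle and base, and -2.07 and -4.25 in the middle and base without the top cells. In OHCs the base-to-apex difference was -5.22, and -4.32 without the top cells. In the lower series the gene was at or below 11.8 CPM in 5 of the 6 groups. An annotated transcript on the opposite strand, Gm43361, overlaps 83 exonic bases, and the strand setting of the counting is not given.

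Slc8a1, the exchanger NCX1 (chromosome 17, 81373105 to 81738377, minus strand), was low throughout the lower series and high in 1 group of the higher series. Its summed levels were 20.5, 281 and 35.9 CPM in apical, middle and basal IHCs and 157, 48.8 and 0.199 CPM in OHCs, the last from 4 counts (interval 0.054 to 0.510). Among middle IHCs of the higher series, 12 of 13 exceeded 100 CPM, with a median of 555 CPM and a highest cell of 1123 CPM. None of the 81 cells of the lower series did. Elsewhere 3 basal IHCs, 2 apical OHCs, 1 apical IHC and 1 middle OHC exceeded 100 CPM, and the median cell of each of the 6 groups was at or below 0.34 CPM. The OHC-to-IHC differences were 2.88, -2.50 and -4.94 in apex, middle and base over all cells. In the lower series alone they were -0.18, 0.21 and -0.22, at group levels under 1 CPM. One cell held 79.0% of the counts of apical OHCs and 1 cell 79.5% of those of middle OHCs. Without the top cells the middle difference was -4.24 and the base-to-apex difference in OHCs, -7.04 over all cells, was -5.18. Opposite-strand transcripts (AC122399.1 and Gm11096) overlap 304 exonic bases of Slc8a1.

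Slc8a2, the exchanger NCX2 (chromosome 7, 16129826 to 16161063, plus strand), had a low level throughout. It stood at 10.4, 9.65 and 3.61 CPM in apical, middle and basal IHCs and at 46.0, 4.71 and 0.548 CPM in OHCs, the last from 11 counts. Apical OHCs were thus highest, with a log2 difference of 2.05 from apical IHCs. That difference rested on the higher series, where the levels were 67.5 and 18.1 CPM, against 0.472 and 0.528 CPM in the lower series. Without the top cells it was 2.70. Single cells reached 90.0, 51.1 and 18.8 CPM in IHCs and 311, 497 and 1.52 CPM in OHCs, and the median cell was at or below 0.36 CPM in every group, so all groups overlapped. The middle difference was -0.90 over all cells but 2.98 in the lower series and 1.91 after thinning to equal depth, where the OHC at 497 CPM weighed more. The base-to-apex differences were -1.31 in IHCs, or -0.79 without the top cells, and -4.93 in OHCs.

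**Figure D3:**
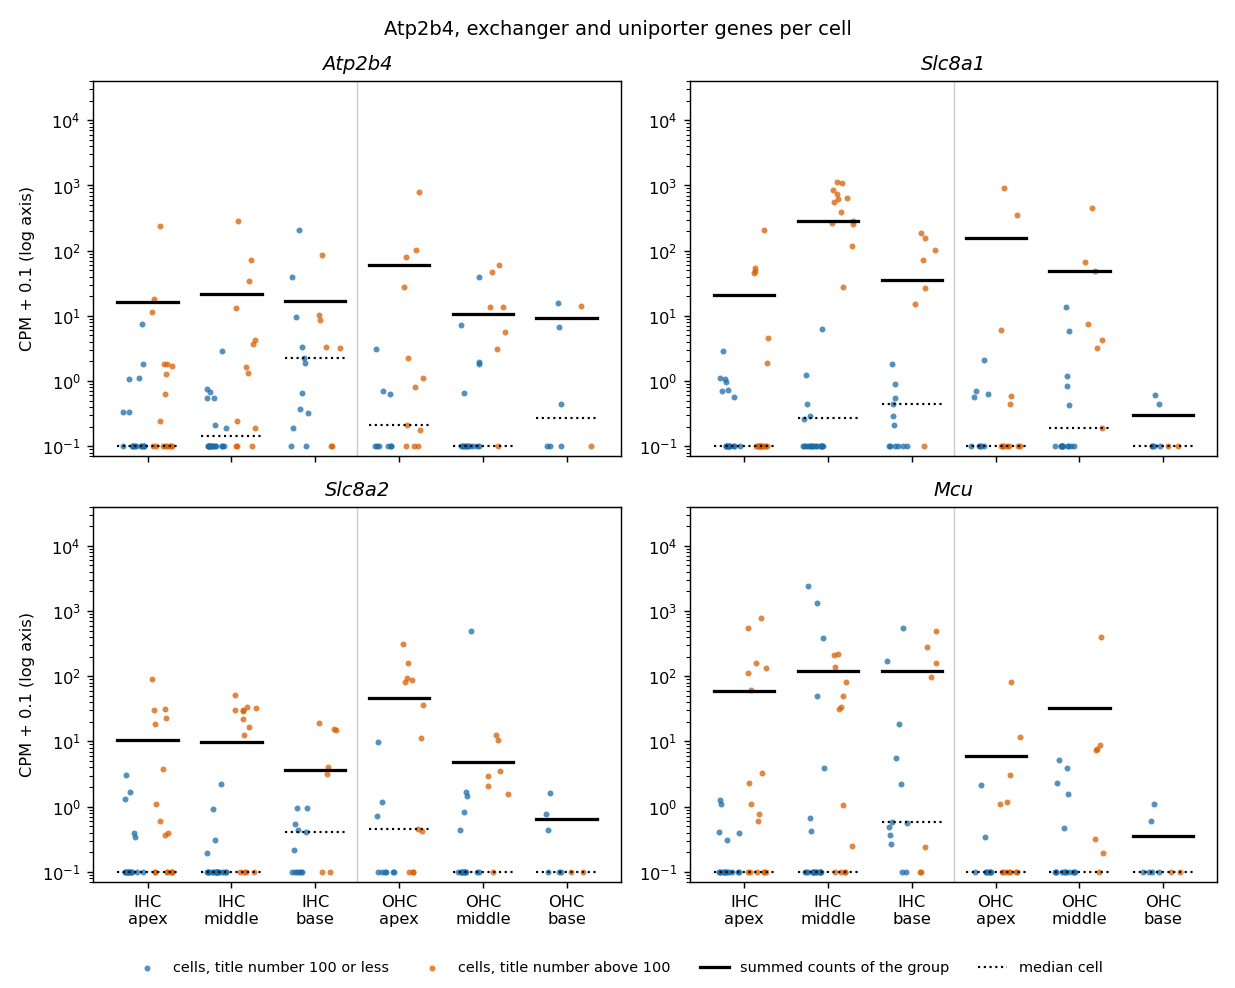
CPM of Atp2b4, Slc8a1, Slc8a2 and Mcu in each cell on a log axis (0.1 CPM added), by cell type and region, with color giving the title-number series, solid bars the summed level and dotted lines the median cell. For Slc8a1, middle IHCs of the higher series cluster around a median of 555 CPM while all cells of the lower series stay below 100 CPM.

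Mcu, the pore subunit of the uniporter (chromosome 10, 59446984 to 59616692, minus strand), had lower summed levels in OHCs in every region. The window before its start, chr10:59616693-59616942 on the minus strand, holds 2 CCAAT boxes on the opposite strand and no GC box.
Mcu: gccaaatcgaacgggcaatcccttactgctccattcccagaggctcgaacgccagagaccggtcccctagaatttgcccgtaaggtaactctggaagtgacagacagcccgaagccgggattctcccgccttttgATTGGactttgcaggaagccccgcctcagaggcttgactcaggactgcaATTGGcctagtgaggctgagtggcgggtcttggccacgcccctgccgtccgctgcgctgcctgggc

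IHCs held 60.2, 121 and 118.7 CPM of Mcu in apex, middle and base, and OHCs 5.80, 32 and 0.249 CPM, the last from 5 counts (interval 0.081 to 0.581). Single cells reached 775, 2438 and 553 CPM in IHCs and 80.5, 397 and 1.01 CPM in OHCs, from a lowest cell at 0 and a median at or below 0.48 CPM in all 6 groups. The groups therefore overlapped, and 16 of 87 IHCs against 1 of 52 OHCs exceeded 100 CPM. That 1 middle OHC held 93.9% of the Mcu counts of its group. The log2 differences between OHCs and IHCs were -3.17, -1.89 and -6.58 in apex, middle and base, and -4.47 in the apex and -4.17 in the middle without the top cells. The middle difference was 0.39 in the higher series, where that OHC lies, and -7.83 in the lower series. In the lower series 3 of 21 middle IHCs exceeded 100 CPM, the highest at 2438 and 1345 CPM, and the median middle IHC was at 0. The apical levels of the lower series were only 0.352 CPM in IHCs and 0.0787 CPM in OHCs. Over all cells the median cell of both apical groups was at 0. The OHC base-to-apex difference of -2.44 was -0.53 without the top cells.

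Among all 32536 windows of 250 bases before RefSeq starts, 33% held a GC box and 33.8% a CCAAT box on either strand, and the median GC content was 52.4%. The Atp2a3 window had a GC content of 66.8%, the Atp2b1 window 80.8% and the Mcu window 60.8%. None of the 3 held the TATA box TATAAA, which 12.3% of all windows hold. None held the E-box CACGTG, found in 6.04% of windows, or the E-box form CAGCTG, found in 13.1%. Of the 8 members 7 had a window in the RefSeq table. The printed sequences shared no motif that all 3 held, and a match to so few letters is a description of the window only.

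Compared per kilobase of exon, the order of the members differed between the cell types. In IHCs Atp2a3 led with 241, 268 and 420.0 CPM per kilobase in apex, middle and base, followed by Atp2b1 with 96.0, 167 and 312. In the lower series Atp2b1 was above Atp2a3 in basal IHCs, with 489.9 against 258 CPM per kilobase. In apical and middle OHCs Atp2b2 led with 91.4 and 81.7 CPM per kilobase, followed by Atp2b1 with 38.1 and 40.5, but Atp2b1 led in middle OHCs of the lower series. In basal OHCs Atp2b1 led with 8.88 CPM per kilobase, and the next, Atp2b4, stood at 0.760. Mcu and Atp2a2 lay between 8.68 and 36.7 CPM per kilobase in the IHC groups.

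Counting members between the cell types, 3 of 8 were called lower in OHCs and 4 higher in the apex, where 32.4% and 28.6% of 15004 genes were called lower and higher. In the middle 4 were lower and 1 higher, beside 29.7% and 20.7% of all genes. In the base 7 were lower and 0 higher, beside 48.9% and 16.1% of all genes. Over the mean of the 3 regions 5 were lower (Atp2b1, Atp2a2, Atp2a3, Slc8a1 and Mcu) and 0 higher, beside 39.2% and 17.3% of all genes. The median member difference over that mean was -1.76, against -0.59 for all genes. With the basal groups left out, a comparison added after the data were seen, 3 members were lower and 1 (Atp2b2) was higher, beside 30.3% and 22.9% of all genes. Slc8a1 and Atp2a2 then had mean differences of 0.19 and 0.04.

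Between base and apex, 2 of 8 members were called lower in basal IHCs (Atp2b2 and Slc8a2) and 2 higher (Atp2b1 and Atp2a2), beside 31.5% and 26.5% of all genes. In the higher series neither Atp2b1 (0.86) nor Atp2a2 (-0.71) was called higher, and Atp2a3 (1.12) and Slc8a1 (1.14) were. In OHCs 7 of 8 were lower in the base and 0 higher, beside 47.6% and 17.4% of all genes, and the median member difference was -3.76 against -0.72 for all genes. The basal and apical groups also enter the comparisons between cell types, so these counts are not independent of those above. The low hair cell markers and high hemoglobin and connective tissue markers of basal OHCs accompany the OHC count. Most counts of apical OHCs also came from the higher series and most of basal OHCs from the lower series. The OHC count within the lower series is given below.

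**Figure D4:**
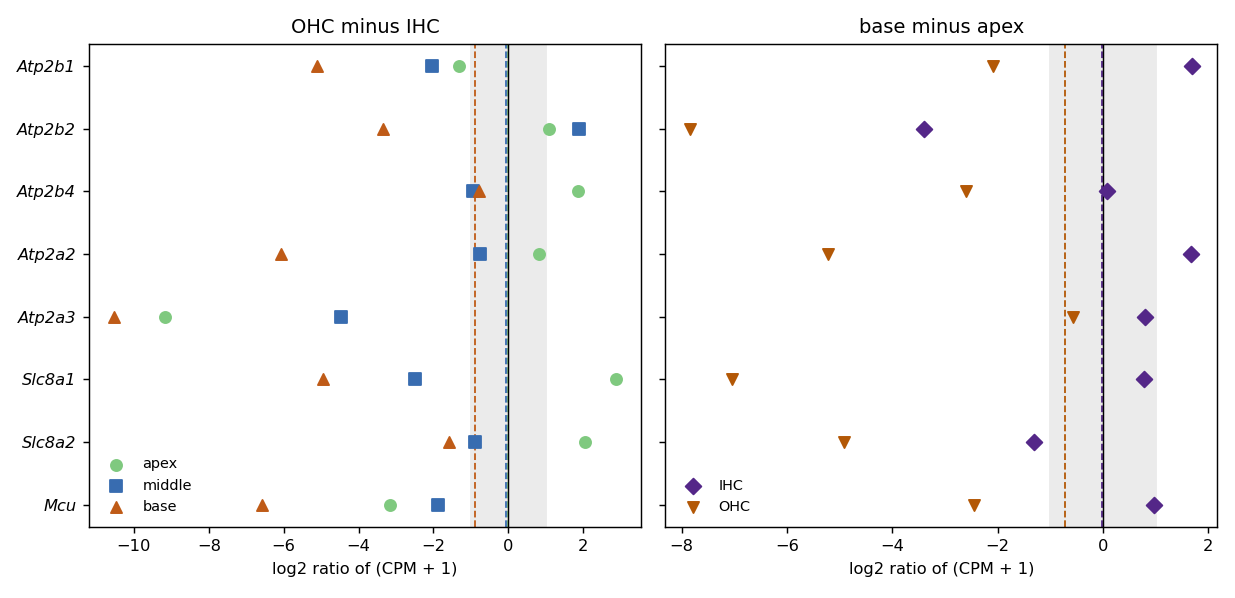
Log2 ratio of (CPM + 1) for each member between OHCs and IHCs in each region (left) and between base and apex in each cell type (right). Gray bands mark differences under 2-fold and dashed lines the median of all 15004 genes in each comparison; Atp2a3 lies at -4.47 or below in all 3 regions and 7 members lie below the band in the basal region.

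Other genes of calcium transport were taken from a list of 44 regulators, channels and further transporters, of which 41 had a row in the table and 34 reached 5 CPM in at least 1 group. Over the mean of the 3 regions, 13 of the 34 were called lower in OHCs and 5 higher, beside 39.2% and 17.3% of all genes, with a median difference of -0.79 against -0.59 for all genes. Slc24a3, a potassium-dependent sodium-calcium exchanger, was lowest at -5.52. It stood at 127, 619.9 and 926 CPM in apical, middle and basal IHCs and at 4.55, 70.6 and 0.896 CPM in OHCs. Slc24a3 was lower in OHCs in all 3 regions over all cells, as were Atp2b1, Atp2a3 and Mcu, though the Mcu middle difference was 0.39 in the higher series. Next came Tmbim6, a membrane protein of the endoplasmic reticulum, at -2.79, Slc24a1 at -2.32 and Stim2, a calcium sensor of that store, at -2.12. One basal IHC held 98.8% of its group's Slc24a1 counts and 1 held 96.3% of the Stim2 counts. Without the top cell of each group, a comparison added after the data were seen, these means were -0.55 and -0.88, and those of Slc24a3 and Tmbim6 were -5.93 and -2.88. Tmbim6 and Stim2 differed by less than 2-fold in apex and middle, so their mean differences came from the base.

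Ryr1, a ryanodine receptor that releases calcium from the endoplasmic reticulum, was highest in OHCs relative to IHCs, with a mean difference of 4.61. Its levels were 0.755, 2.81 and 0.395 CPM in apical, middle and basal IHCs and 4.43, 150 and 165 CPM in OHCs. One basal OHC held 91.4% of its group's Ryr1 counts, and in middle OHCs the lower series had 1.14 CPM and the higher series 236 CPM. Slc24a2 followed at 2.20, then Ryr2 at 1.83 and Vdac1, a channel of the outer mitochondrial membrane, at 1.39. One cell held 99.2% of the Slc24a2 counts of apical OHCs and 1 held 77.8% of those of basal OHCs. Without the top cells the means were 3.85 for Ryr1, 0.70 for Slc24a2, 0.47 for Ryr2 and 1.37 for Vdac1. Nptn and Bsg encode neuroplastin and basigin, subunits that accompany the plasma membrane pumps. Nptn stood at 235, 249 and 119.4 CPM in IHCs and 193, 179 and 55.5 CPM in OHCs, a mean difference of -0.62, or -2.25 without the top cells. Bsg stood at 63.3, 30.6 and 44.2 CPM in IHCs and 19.1, 61.4 and 6.08 CPM in OHCs, a mean difference of -1.12. Neither subunit was called higher in apical or middle OHCs, where Atp2b2 was, though Bsg in the middle was just under the call at 0.98.

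**Figure D5:**
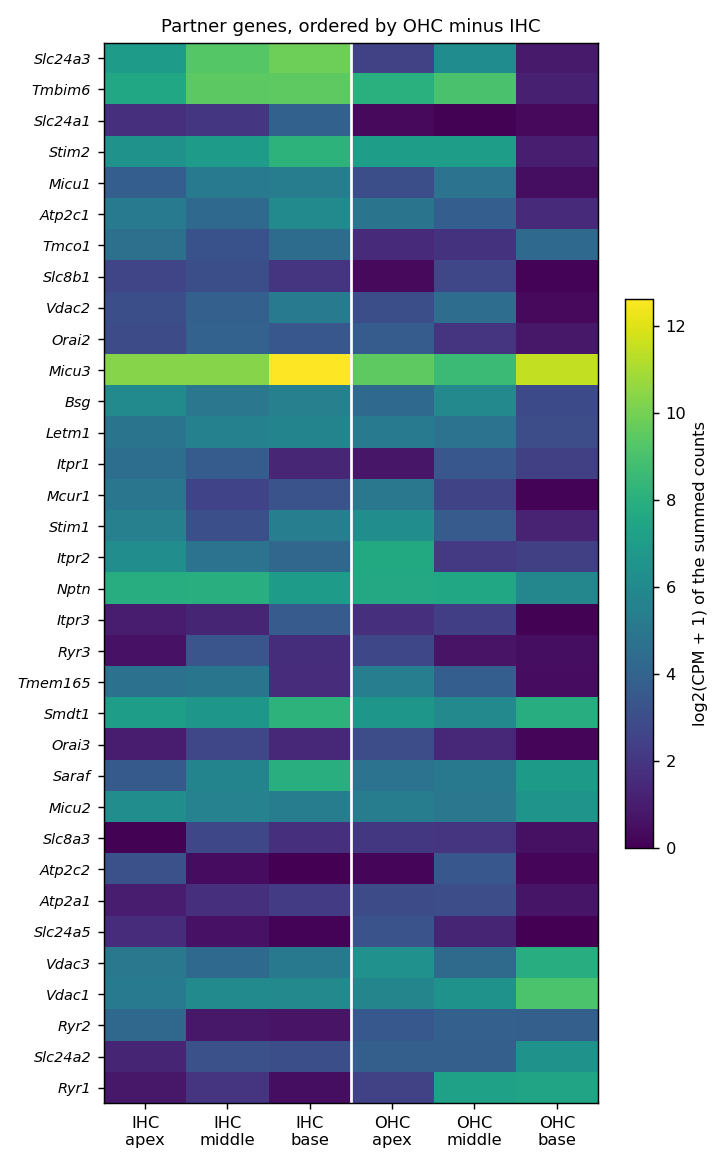
Color gives log2(CPM + 1) of the summed counts for 34 other calcium transport genes in the 6 groups, ordered by the mean difference between OHCs and IHCs. Slc24a3 at the top is bright only in the IHC columns and middle OHCs, and Ryr1 at the bottom is bright in middle and basal OHCs (150 and 165 CPM).

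Genes with the most similar pattern were sought by Pearson's r of log2(CPM + 1) over all IHCs and OHCs among 10514 genes. For Atp2a3 they were Otof (r = 0.79), Slc17a8 (r = 0.76) and Synrg (r = 0.71), and the first pair were among the markers of IHCs. For Atp2b1 the closest was Atp2a3 itself (r = 0.58), then Myo6 (r = 0.55) and Ric1 (r = 0.53). For Atp2b2 they were Lpin2 (r = 0.64), Srpk2 (r = 0.62) and the OHC marker Sri (r = 0.60). The closest genes were Pde4dip for Atp2a2 (r = 0.64), Ttc39b for Slc8a2 (r = 0.62), Il17d for Atp2b4 (r = 0.57) and Ap3s2 for Mcu (r = 0.56). These cells share cell type, series and depth, and each member's own r with the log2 total lay between 0.27 and 0.49, so the values are descriptions only.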

How the data were processed

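RNA of single cochlear cells was sequenced, and what the authors deposited is a single matrix of unnormalized gene counts with 1 column per cell. Trimmomatic, HISAT2, featureCounts (Subread 1.4.6) and the build GRCm38 are named per the submitters' processing notes. For the annotation, the strand setting, multiply mapped reads and molecular identifiers, the authors' choices were not given in the sources used here. Columns were matched to samples by title. Identifiers were matched to GENCODE M21, where 55154 of 55335 had a symbol. The 181 without one held 0.00885% of counts.

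Counts were summed over the cells of each of the 6 groups, scaled by TMM (edgeR 4.0.16) and given as CPM. Exact Poisson and Clopper-Pearson binomial intervals at 95% cover counting error only. Differences used a pseudocount of 1 CPM, genes needed 5 CPM in at least 1 group to be counted (15004 genes), and no test was made because each group is 1 sample. Group totals ran from 28574809 (basal OHCs) to 199944360 (middle IHCs). No doublet removal was applied. The pooled log2 difference, on plain totals, was computed on simulated counts with known changes. The TMM scaling and the series, top-cell and per-kilobase steps were not tested there.

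All 8 members are named. Of the other calcium transport genes, at most 4 per direction at the extremes are named, besides Nptn and Bsg, and the 3 most similar genes per member were ranked. Those of Slc8a1 are not reported here. The members and lists were chosen with earlier results of these data known. Alternatives were the mean and median of cells, plain totals, DESeq2 1.42.0 size factors, totals without mitochondrial genes, pseudocounts of 0.1 and 5 CPM, no filter, thinning to 582635 counts, each title-number series alone, and leaving out the deepest, the shallow (under 500000 counts) or the top cells. Sequences came from RefSeq.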

Additional observations from a re-analysis of the deposited data

Results flagged for a closer look

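In the basal OHC group, the highest of the 8 cells stood far from the other 7 for 5 of the 8 members. The criterion flags about 1 of 20 groups by chance if values are normally spread, and more where most cells are near 0, as here. The highest cell had 827 CPM of Atp2b1 and the next 139.8 CPM. For Atp2b2 they had 45.6 and 3.51 CPM, for Atp2a2 22.3 and 5.64 CPM, for Atp2a3 2.42 and 1.01 CPM, and for Slc8a2 1.52 and 0.679 CPM. A different cell was highest for each of these genes, and the highest cells held 3 counts of Atp2a2, 3 of Slc8a2, 6 of Atp2a3, 45 of Atp2b2 and 2120 of Atp2b1.

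Differences between base and apex ran in opposite directions in the cell types for Atp2b1 (1.70 in IHCs and -2.09 in OHCs) and Atp2a2 (1.67 and -5.22, on the log2 scale). The difference between the types was not tested. For Atp2a2 it rested on 1 basal IHC with 85.1% of its group's counts: the IHC value was -0.52 without the top cells, -0.71 in the higher series and -0.30 with the median of cells. For Atp2b1 the IHC value was 0.86 in the higher series.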

How the results depend on the processing

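No paired analysis was possible because the labels name no animal, each group is 1 sample and no result comes from a test. Of the 35 member differences past 2-fold, all 35 kept their direction under the mean of cells, plain totals, DESeq2 size factors, totals without mitochondrial genes, both pseudocounts, thinning, and without the deepest, the shallow or the label-discordant cells (the last added after seeing the data). The number was 24 with the median of cells, 27 in the lower series, 33 in the higher series and 34 without the top cells, of which 13, 21, 30 and 31 stayed past 2-fold, and the cause was not tested. In the higher series the basal OHC group was only 2 cells, with 134269 and 2481594 counts. Neither had a read of Slc8a1, Slc8a2 or Mcu. DESeq2 size factors moved the median of all genes by 0.50 in the basal and 0.32 in the mean comparison, and by 0.34 between basal and apical OHCs.

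The 5 members lower in OHCs became 2 with the median of cells and 3 with apex and middle only (added after seeing the data), and the 0 higher became 1 in the lower series and 1 with apex and middle only. In IHCs the 2 lower in the base became 1 with the mean of cells, the median, a pseudocount of 5 CPM, thinning or no top cell, and 0 in the lower series. The 2 higher became 4 with the mean of cells, in the lower series and without the top cell; in the higher series 2 other members took their place. In OHCs the 7 lower in the base became 2 with the median and 3 in the lower series, and the 0 higher became 1 in the lower series.

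With the median of cells, the sign turned for Atp2b2 in the middle (-0.0755), Atp2b4 between OHC base and apex (0.0764), Atp2a2 in the base (0.30), Atp2a2 between base and apex in IHCs (-0.30) and OHCs (0.79), and Slc8a2 between IHC base and apex (0.38). In the lower series it turned for Atp2b2 between IHC base and apex (0.47), Atp2b4 in the apex (-0.67) and between OHC base and apex (2.43), Slc8a1 in the apex (-0.18) and middle (0.21), Slc8a2 in the apex (-0.0535) and base (0.22), and Mcu between OHC base and apex (0.16). In the higher series it turned for Mcu in the middle (0.39) and Atp2a2 between IHC base and apex (-0.71), which was -0.52 without the top cell. With apex and middle only, it turned for the means of Atp2a2 (0.0375) and Slc8a1 (0.19).

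Without the filter on low genes, the share of genes called lower in OHCs over the mean of regions was 11.3% in place of 39.2%. Per plain counts, Atp2b2 made up 64.2% of the pump counts of apical OHCs in place of 67.9% per kilobase. In basal OHCs the values of Slc8a1, Mcu, Atp2a3 and Slc8a2 rest on 4, 5, 10 and 11 counts of 28574809.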

Other observations

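Between base and apex, 14 of the 34 other calcium transport genes were called higher and 7 lower in basal IHCs, beside 26.5% and 31.5% of all genes, with a median difference of 0.67 against -0.02 for all genes. The highest were Saraf, a regulator of store-operated calcium entry, at 4.36, then Slc24a3 at 2.86, the inositol trisphosphate receptor Itpr3 at 2.70 and the uniporter regulator Micu3 at 2.29. One cell held 67.8% of the Saraf counts of basal IHCs, and without the top cells the difference was 3.16. The lowest were Ryr2 at -3.51, Itpr1 at -3.16, and Atp2c2 and Tmem165, both at -3.08. Single apical IHCs held 99.6% of the Atp2c2, 89.9% of the Tmem165 and 59.1% of the Ryr2 counts of their group, and without the top cells the differences were -0.03, -1.09 and -2.54. In OHCs 10 were higher and 20 lower in the base, beside 17.4% and 47.6% of all genes, led by Ryr1 at 4.93 and Vdac1 at 3.28 (2.44 and 2.46 without the top cells), and by Tmbim6 at -6.89 and Stim2 at -5.94.

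Micu3 was the most abundant uniporter regulator by summed level, at 1283 CPM in apical, 1282 CPM in middle and 6294 CPM in basal IHCs and 728, 394 and 2840 CPM in OHCs. In basal IHCs it stood at 11489 CPM in the lower series and 857 CPM in the higher series. Atp2b3, the remaining plasma membrane pump gene, did not reach 5 CPM in any group, and 1 cell held 99.8% of its counts in basal IHCs.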
